A study of Mus musculus with 15 samples.

Results

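JMJD1A (also called KDM3A) removes methyl groups from lysine 9 of histone H3, and the change of gene expression after its knockdown was read in 6 of the 15 RNA-seq libraries of the series. They are the 3 libraries titled for the sh-Jmjd1a hairpin alone and the 3 sh-Empty control libraries, all from day 2 of differentiation, and they were chosen by these titles and not by any measured value. Both groups are stable lines of 3T3-L1, a mouse preadipocyte line, made by infection with pMXs-based retrovirus and antibiotic selection. The sh-Jmjd1a virus expresses a short hairpin RNA against Jmjd1a, and the sh-Empty virus is described in the study's results as expressing no hairpin and in its methods as expressing a control hairpin. Cells of both groups had stood at confluence before induction and then received insulin, dexamethasone and IBMX on day 0. The other 9 libraries come from sh-Jmjd1a cells that also carry LacZ, JMJD1A(WT) or a JMJD1A mutant, and were used only where stated. A stable line is 1 selected population, and no source used here says that the 3 libraries of a group came from separate infections, so the p-values measure the spread between these libraries.

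As background, JMJD1A is a dioxygenase of the Jumonji C family that needs iron and 2-oxoglutarate, and its substrate, dimethylated lysine 9 of histone H3, is found at silent chromatin. In 3T3-L1 cells the hormone mix first returns the arrested cells to the cell cycle and raises C/EBPβ and C/EBPδ, which then raise PPARγ and C/EBPα, the factors that turn on the lipid genes. On day 2 a culture is therefore between the proliferating and the lipid-storing state, and preadipocyte, cell cycle and early adipocyte transcripts are present together.

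The 6 libraries held 11437058 to 15561207 counts. The unit of level is CPM, a count divided by its TMM-adjusted library size. In bulk RNA, fewer cells of a type and less RNA per cell cannot be told apart. The first principal component held 68.7% of the variance and separated the groups. On the second, with 9.24%, sh-Jmjd1a replicate 3 stood apart from all other libraries. This library also differed more from its own replicates, at a chi-square per degree of freedom of 4.69 and 5.45, than other replicate pairs did (2.06 to 2.32). Its difference rose with transcript length, as described with the lengths. Gene group counts without it are given for some lists, and those of other lists also moved by a few genes. The adipocyte markers were all 8 lower in sh-Jmjd1a cells, with summed levels of 5149 to 5235 CPM in sh-Empty and 2590 to 2722 CPM in sh-Jmjd1a libraries. Of the 8 preadipocyte or fibroblast markers 5 were higher and 2 lower, and their sum was 9675 to 9805 CPM against 15154 to 16151 CPM. The labelled cell type was thus seen in both groups. Most of this sum and of its rise was Col3a1, at means of 4794 and 8703 CPM, and Col1a1, at 1168 and 3121.5 CPM. Pdgfra did not pass the test, and Dlk1 and Ly6a were the lower markers. Summed smooth muscle markers were at 10.9 to 13.5 against 7.85 to 9.56 CPM, osteoblast markers at 171 to 179 against 249 to 263 CPM, chondrocyte markers at 148 to 154 against 193 to 208 CPM, and neuronal and glial markers at 10.2 to 13.7 against 26.5 to 31.5 CPM. The chondrocyte sum was mostly Sox9, at means of 144 and 194 CPM, while Acan, Col2a1 and Col9a1 had at most 1 count in any library. The osteoblast sum was mostly Spp1, at means of 139 and 171 CPM, while Sp7 and Bglap had at most 1 count in any library. Ostn, another of these markers, went from a mean of 1.91 to 45.7 CPM and gave more of the rise than Spp1. Most of the rise of the neuronal and glial sum was Map2, at means of 7.89 and 25.2 CPM. The part of these cell types in the results was not tested. Skeletal muscle, leukocyte, endothelial and epithelial marker sums were 5.64 CPM or less in every library. Myod1, Myog, Myf5, Ckm, Tyrobp, Tie1, Cldn5, Epcam, Cldn4 and Esrp1 had no counts in any of the 6.

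Kdm3a, the targeted gene, lies on chromosome 6 of mm9 (chr6:71538968-71582899, minus strand). It was present at 171, 174 and 185 CPM in sh-Empty and 129, 128 and 138 CPM in sh-Jmjd1a libraries. All sh-Jmjd1a libraries were below all sh-Empty libraries, and the log2 fold change (sh-Jmjd1a minus sh-Empty, as everywhere below) was -0.42 (SE 0.048, edgeR adjusted p = 2.91e-08, quasi-likelihood test). The mean was 177 CPM in sh-Empty and 132 CPM in sh-Jmjd1a cells, so transcript was still present. Protein was not measured in these files.

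Expression of a large part of the transcriptome differed between the groups, in both directions and mostly by small amounts. At an adjusted p under 0.05, 23.9% of the 12272 tested genes were lower and 22.3% were higher, 46.2% together. Genes that passed this threshold are called lower or higher here. The counts were 2931 and 2741, and 63.9% of the called genes changed by less than 0.5 on the log2 scale. A change of at least 1 was reached by 277 lower genes (2.26% of those tested) and by 377 higher genes (3.07%). A change of at least 2 was reached by 43 and 62 genes, and of at least 3 by 10 and 23. The largest changes were therefore more often rises. All sh-Jmjd1a libraries lay below all sh-Empty libraries in 27.4% of the tested genes and above them in 25.6%. Calls followed the level, since 38.8% of the genes in the highest of 4 equal classes by level were lower and 25% higher, against 10.5% and 16.2% in the lowest class.

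The genes that fell most included several known adipocyte genes. The plot of the largest changes shows the 12 largest falls and the 12 largest rises, all called, not overlapping and with 5 CPM or more on average. Agt, which encodes angiotensinogen and lies at chr8:127080434-127093606 of mm9, was the abundant one among them, at 874, 803 and 889 CPM in sh-Empty and 122, 122 and 113 CPM in sh-Jmjd1a libraries. Its log2 fold change was -2.84 (SE 0.047, edgeR adjusted p = 1.76e-26), the smallest adjusted p of all genes. Gpd1, the cytosolic enzyme that makes glycerol 3-phosphate for triglyceride, was at 24.5, 21.7 and 24.5 CPM in sh-Empty and 2.70, 3.07 and 2.95 CPM in sh-Jmjd1a libraries. The fold change of Gpd1 was -3.02 on the log2 scale. Cidec, a protein of the lipid droplet surface, stood at 155, 172 and 172 CPM in sh-Empty and 27.2, 29.4 and 27.4 CPM in sh-Jmjd1a libraries. All 3 of these genes had tight replicates and a wide gap between the groups. Cabp4, of the calcium-binding protein family, was at 13.3, 12.3 and 11.4 CPM in sh-Empty and 1.66, 0.726 and 2.10 CPM in sh-Jmjd1a libraries, with a log2 fold change of -3.02. The rootletin-like gene Crocc2 was at 50.2, 45.1 and 48.1 CPM in sh-Empty and 7.59, 7.10 and 9.48 CPM in sh-Jmjd1a libraries, with a log2 fold change of -2.56. Fam83a fell by 2.38 from a mean of 80.9 CPM. AU015836, a noncoding gene, and Arxes2, an adipocyte gene of the X chromosome, fell, at -2.75 and -2.54. Cfd, Retn, Adipoq and Plin1 completed the list, at -3.73 to -2.36.

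**Figure D1:**
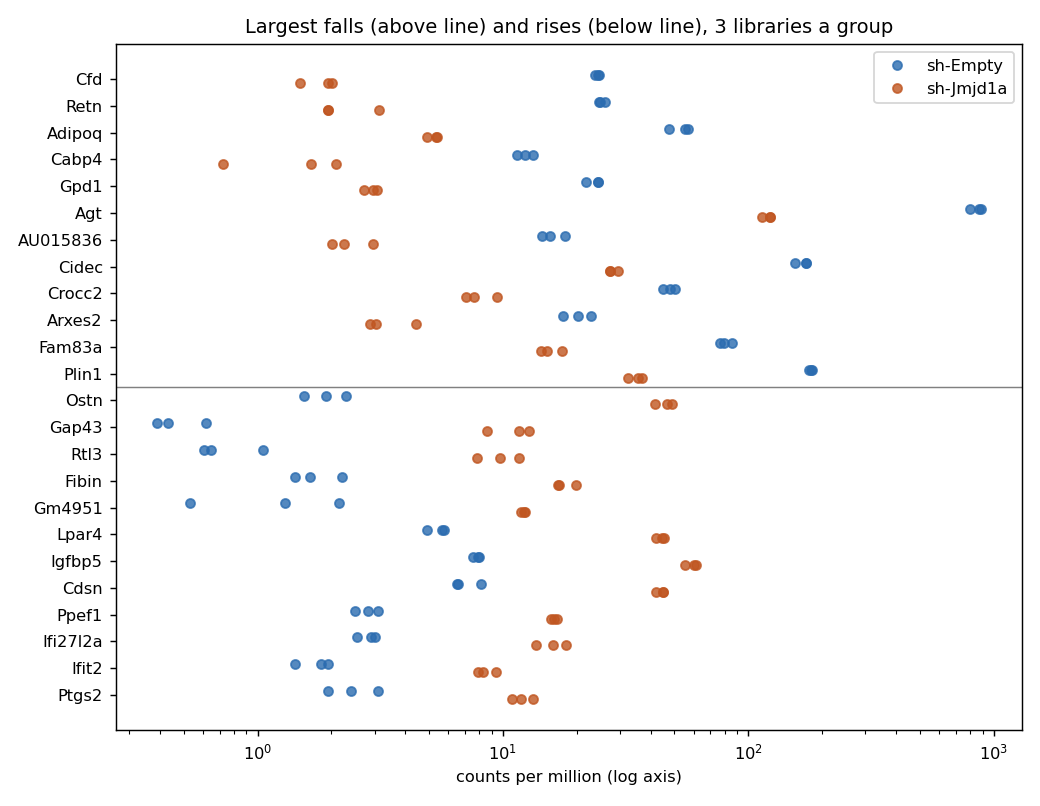
CPM in each of the 6 libraries (log axis) for the 12 largest falls, above the line, and the 12 largest rises, below it. Each point is a library, blue for sh-Empty and orange for sh-Jmjd1a. In every gene the 3 libraries of one group lie to one side of the other 3, as the choice required, and Agt reaches the highest level at 803 to 889 CPM in sh-Empty cells.

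The 12 largest rises were all in genes below 10 CPM in sh-Empty cells. Ostn, which encodes the secreted peptide osteocrin, was at 2.29, 1.90 and 1.55 CPM in sh-Empty and 46.4, 49 and 41.7 CPM in sh-Jmjd1a libraries. The 2 groups were more than an order of magnitude apart, with a log2 fold change of 4.60 (SE 0.14, edgeR adjusted p = 3.19e-20). Fibin, a secreted protein first described in fin buds, was at 2.2, 1.64 and 1.42 CPM in sh-Empty and 16.8, 19.8 and 16.9 CPM in sh-Jmjd1a libraries. It rose by 3.37. Lpar4, a receptor for lysophosphatidic acid, was at 5.64, 5.77 and 4.92 CPM in sh-Empty and 42, 45.2 and 44.3 CPM in sh-Jmjd1a libraries, and rose by 3.02. The gene for IGF-binding protein 5, Igfbp5, stood at 8.02, 7.93 and 7.57 CPM in sh-Empty and 60.1, 61.3 and 54.9 CPM in sh-Jmjd1a libraries, a rise of 2.91. Corneodesmosin, a skin adhesion protein, is the product of Cdsn, which was at 8.11, 6.55 and 6.47 CPM in sh-Empty and 45.1, 44.8 and 41.9 CPM in sh-Jmjd1a libraries. Its rise was 2.65. Gap43, a growth-cone protein of neurons, and Rtl3, a retrotransposon-derived gene, rose by 4.52 and 3.67 but stayed at 12.8 CPM or less. Ppef1, a phosphatase gene, rose by 2.51, and Ptgs2, the inducible cyclooxygenase, by 2.31. The interferon-linked genes Gm4951, Ifi27l2a and Ifit2 rose by 3.18, 2.48 and 2.32. One named gene, Gpr141, a receptor of unknown ligand, had 0 counts in all 3 sh-Empty libraries and 16, 30 and 32 counts in the sh-Jmjd1a libraries. Against a floor of 3 counts per library these are low levels, 1.40 to 2.49 CPM. The only other gene of this kind was gene number 214604, which has no symbol, with 0 counts against 13, 12 and 14. No gene was at 0 in all sh-Jmjd1a libraries and at 10 or more counts in each sh-Empty library.

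Among the 244 genes of at least 500 CPM, 93 were lower and 61 higher, beside 23.9% lower and 22.3% higher of all tested genes. In the highest class by level, described above, 38.8% were lower and 25% higher. The 93 and 61 were therefore not read as particular to genes this abundant. The genes of at least 500 CPM with the largest changes follow. C3, the central complement component, which adipocytes secrete, was at 2132, 2165 and 2214 CPM in sh-Empty and 719, 702 and 689 CPM in sh-Jmjd1a libraries. It fell by 1.63. Acsl1, which activates long-chain fatty acids, was at 875, 906 and 867 CPM in sh-Empty and 226, 220.3 and 233 CPM in sh-Jmjd1a libraries and fell by 1.96. Lrig1, a transmembrane inhibitor of growth factor receptors, was at 1163, 1130.4 and 1123 CPM in sh-Empty and 425, 414 and 412 CPM in sh-Jmjd1a libraries. Each of these had a spread between replicates far below the gap, and Lrig1 fell by 1.45. On the other side, Col1a1 was at 1208, 1155 and 1140.0 CPM in sh-Empty and 3167, 3144 and 3054 CPM in sh-Jmjd1a libraries, a rise of 1.42 (edgeR adjusted p = 1.29e-22). Lysyl oxidase, which cross-links collagen, is encoded by Lox, at 325, 325 and 339 CPM in sh-Empty and 721, 709 and 683 CPM in sh-Jmjd1a libraries and a rise of 1.09. The lysosomal protease gene Ctsl was at 349.6, 350.3 and 364 CPM in sh-Empty and 766, 764 and 717 CPM in sh-Jmjd1a libraries, and rose by 1.08. Fstl1, a secreted glycoprotein, rose by 0.91. Mterf4 and Ahnak are also among the genes of at least 500 CPM, at -1.17 and 1.15. For both, however, sh-Jmjd1a replicate 3 was the highest library of its group, at 891 CPM for Mterf4 and 1105 CPM for Ahnak.

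**Figure D2:**
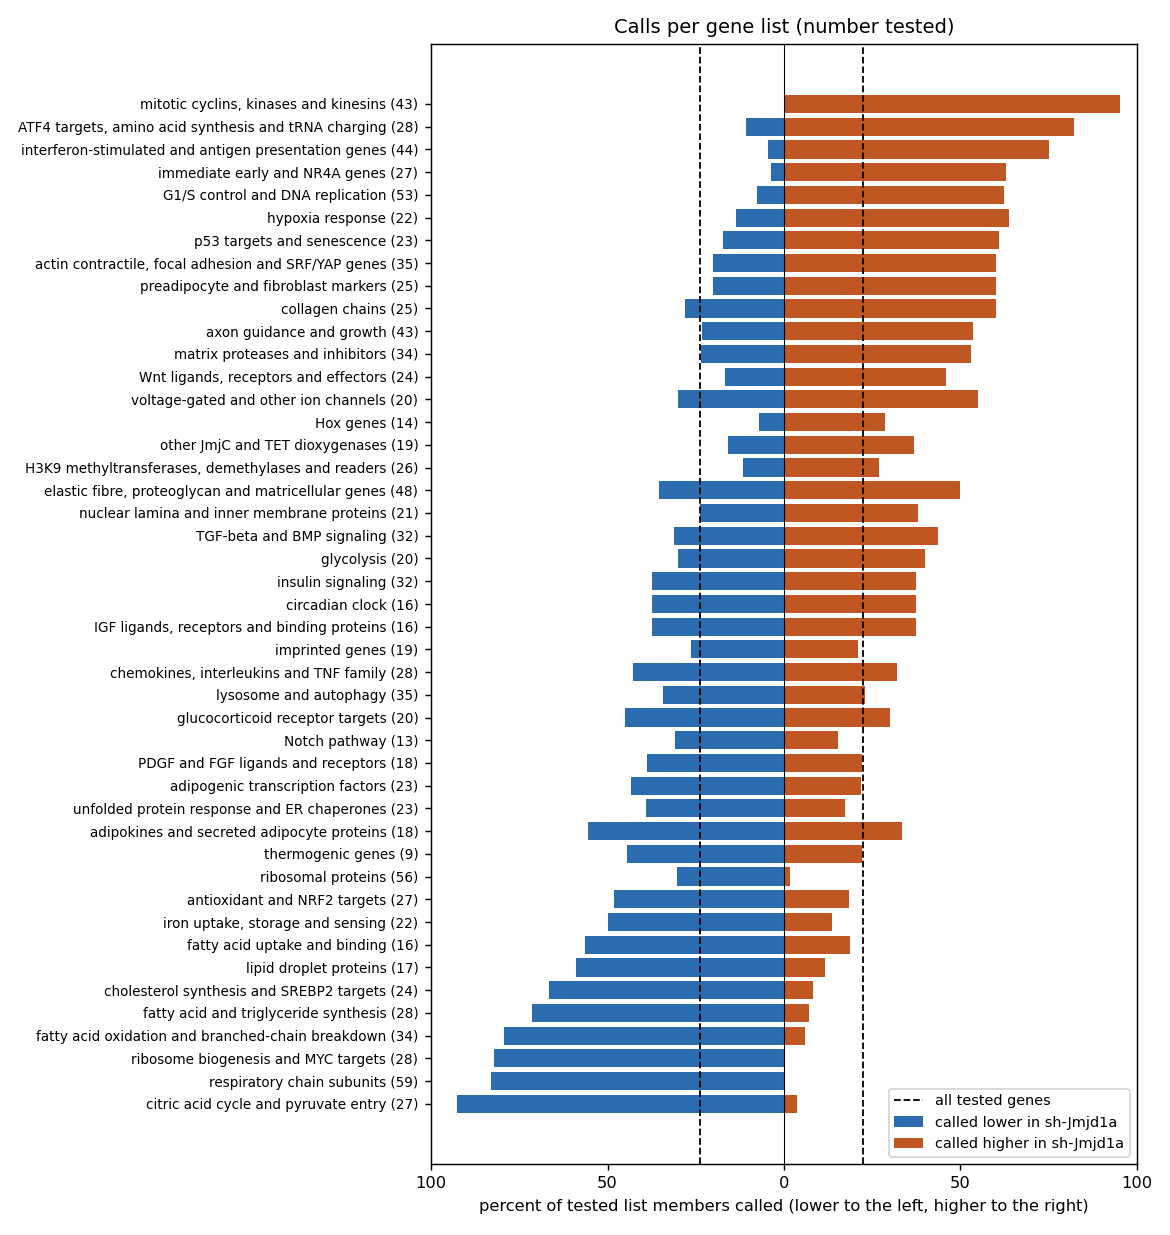
Percent of tested members called lower (blue, to the left) and higher (orange, to the right) for each gene list with at least 5 tested members, with the number tested in brackets. Dashed lines mark the shares of all tested genes, 23.9% lower and 22.3% higher. The citric acid cycle list has 25 of 27 members lower, and the mitotic list has 41 of 43 members higher.

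Genes of mitochondrial energy metabolism fell as a broad block of small changes. Of 27 tested genes of the citric acid cycle and pyruvate entry, 25 were lower and 1 higher, at a median log2 fold change of -0.39, against -0.0032 over all tested genes. The enzyme gene Suclg1 (succinyl-CoA ligase) was at 104, 92.7 and 113 CPM in sh-Empty and 49.3, 51.1 and 48.2 CPM in sh-Jmjd1a libraries. Idh3a, of the NAD-linked isocitrate dehydrogenase, was at 212, 213 and 219 CPM in sh-Empty and 108, 114 and 99.1 CPM in sh-Jmjd1a libraries. Both fell, with log2 fold changes of -1.07 and -1.0. Mpc1, of the carrier that brings pyruvate into mitochondria, fell by 1.02. The exception, Idh2, which encodes the NADP-linked isocitrate dehydrogenase of mitochondria, was at 177, 171 and 169 CPM in sh-Empty and 208, 213 and 203 CPM in sh-Jmjd1a libraries and rose by 0.27.

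Of 59 respiratory chain subunit genes, 49 were lower and none higher, at a median of -0.30, and without sh-Jmjd1a replicate 3 the count was 42 lower and 0 higher (median -0.25). Cycs, which encodes cytochrome c, was at 133, 140.1 and 136 CPM in sh-Empty and 86.4, 90 and 85.1 CPM in sh-Jmjd1a libraries. The complex III gene Uqcrfs1 was at 108, 110.0 and 114 CPM in sh-Empty and 74.9, 77 and 69.2 CPM in sh-Jmjd1a libraries. They fell, at -0.65 and -0.59, which is near the largest change of this list, -0.68 for Atp5k of the ATP synthase. Fatty acid oxidation and branched-chain amino acid breakdown gave 27 lower and 2 higher of 34, at a median of -0.41. Aldh6a1 of valine breakdown was at 95.8, 105 and 99.8 CPM in sh-Empty and 44.6, 52 and 46 CPM in sh-Jmjd1a libraries. Acadm, the medium-chain acyl-CoA dehydrogenase, was at 207, 209.9 and 218 CPM in sh-Empty and 113, 105 and 104 CPM in sh-Jmjd1a libraries. Both groups of libraries kept well apart in each, and the log2 fold changes were -1.07 and -0.98. Cpt1a, the gate for fatty acid entry into mitochondria, was higher, at 96.6, 104 and 90.2 CPM in sh-Empty and 128, 134 and 131 CPM in sh-Jmjd1a libraries, so this list did not move one way. The other higher gene was Acaa2 (0.17), whose call was lost with each sh-Empty library left out and with sh-Jmjd1a replicate 2 left out, where only 1 gene of this list was higher.

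Lipid storage and synthesis genes fell by more, and a few members rose. Fatty acid and triglyceride synthesis had 20 lower and 2 higher of 28 (median -0.54). Agpat2, an acyltransferase of triglyceride assembly, was at 88.5, 98.8 and 95.3 CPM in sh-Empty and 22.1, 22.7 and 19.5 CPM in sh-Jmjd1a libraries, with a log2 fold change of -2.14. The stearoyl-CoA desaturase gene Scd1 was at 571, 588 and 568 CPM in sh-Empty and 193, 193 and 181 CPM in sh-Jmjd1a libraries, with a log2 fold change of -1.61. In contrast Elovl5 and Fads1, which lengthen and desaturate polyunsaturated fatty acids, were higher by 0.56 and 0.37. Lipid droplet proteins had 10 lower and 2 higher of 17 (median -0.51). Lipe and Pnpla2, the genes of the lipases HSL and ATGL, fell, at -1.61 and -1.61, and Cav1, of caveolae, rose by 0.19. Fatty acid uptake and binding genes had 9 lower and 3 higher of 16 (median -0.43). Fabp4 fell by 1.87, Lpl fell by 0.74, and the lipoprotein receptor gene Vldlr rose by 0.66. Cholesterol synthesis genes had 16 lower and 2 higher of 24 (median -0.50). Cyp51 was at 129.8, 138 and 118 CPM in sh-Empty and 59.8, 62.9 and 61.9 CPM in sh-Jmjd1a libraries. It fell by 1.06.

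The transcription factors of adipogenesis did not move together, with 10 lower and 5 higher of 23 tested and a median of -0.04. These are 43.5% lower and 21.7% higher, beside 23.9% and 22.3% of all tested genes, so only the lower share stood above that of all genes. Klf15 fell by 2.14 from low levels, Ppargc1b fell by 1.85, and Nr1h3, the gene of the sterol receptor LXRα, fell by 1.23. Of the early factors, Cebpd was at 345, 316 and 340.4 CPM in sh-Empty and 551, 519 and 435 CPM in sh-Jmjd1a libraries and rose by 0.59. Cebpb was at 393, 450.4 and 467 CPM in sh-Empty and 560.2, 431 and 289 CPM in sh-Jmjd1a libraries. In Cebpb the 3 sh-Jmjd1a libraries lay on both sides of the sh-Empty range, and the gene did not pass the test (-0.038, SE 0.28). Klf4, another early factor, rose by 0.81, and Zfp423, a preadipocyte commitment factor, by 0.55. Secreted adipocyte proteins were likewise split, with 10 lower and 6 higher of 18. Igf1 was at 6.26, 4.91 and 3.95 CPM in sh-Empty and 17.2, 12.9 and 17.4 CPM in sh-Jmjd1a libraries. It rose by 1.68.

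Most listed genes for making ribosomes fell, while most ribosomal protein genes did not pass the test. Of 28 genes of ribosome biogenesis and MYC targets, 23 were lower and none higher, at a median of -0.34. Myc itself was at 121, 138 and 133 CPM in sh-Empty and 87.6, 85.9 and 86.4 CPM in sh-Jmjd1a libraries, and Nolc1, a nucleolar chaperone, was at 338, 312 and 325 CPM in sh-Empty and 203, 201 and 179 CPM in sh-Jmjd1a libraries. Their log2 fold changes were -0.60 and -0.74, and Noc4l, of small subunit assembly, fell by 0.77. Of 56 ribosomal protein genes 17 were lower and 1 higher, at a median of -0.08. This count moved with single libraries, to 12 lower and 8 higher without sh-Jmjd1a replicate 3, to 8 lower without sh-Empty replicate 1, to 10 without sh-Empty replicate 3 and to 26 without sh-Jmjd1a replicate 2. Upper-quartile scaling gave 10 lower and 2 higher. The abundant Rplp0 was at 3367, 3161 and 3234 CPM in sh-Empty and 3285, 3362 and 3091 CPM in sh-Jmjd1a libraries, with overlapping groups.

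Nearly all genes of the mitotic list rose. All but 2 of the 43 genes for mitotic cyclins, kinases and kinesins were higher and none was lower, with a median of 0.47, and without sh-Jmjd1a replicate 3 the count was 42. Kif23, a kinesin of the central spindle, was at 22, 20 and 20.8 CPM in sh-Empty and 43.6, 39.3 and 42.1 CPM in sh-Jmjd1a libraries. Cenpe, a kinetochore motor, was at 49.8, 56.9 and 51.9 CPM in sh-Empty and 85.4, 82.1 and 92.3 CPM in sh-Jmjd1a libraries. Ccnb1, of cyclin B1, was at 40.4, 47.1 and 43.6 CPM in sh-Empty and 63.2, 57.2 and 59.8 CPM in sh-Jmjd1a libraries. In each the lowest sh-Jmjd1a library was above the highest sh-Empty library, and the rises were 0.99, 0.71 and 0.46. Birc5 and Aurka were the members that did not pass the test, at 0.10 and 0.14. Aurka passed it without sh-Jmjd1a replicate 3, at 0.21 (edgeR adjusted p = 0.0219). Plk1, of a master mitotic kinase, was higher by 0.17 and lost its call without any one of the sh-Empty libraries and without sh-Jmjd1a replicate 1 or 2.

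G1/S control and DNA replication genes had 33 higher and 4 lower of 53 (median 0.29). Mcm2, of the replicative helicase, was at 95, 97.7 and 96.6 CPM in sh-Empty and 151, 155 and 147 CPM in sh-Jmjd1a libraries, and Prim1, of primase, was at 18, 24 and 22.3 CPM in sh-Empty and 39.3, 39.6 and 40.6 CPM in sh-Jmjd1a libraries. They rose by 0.65 and 0.89, and the repressor E2f7 rose by 1.05 to a mean of 14.8 CPM. Some D- and E-type cyclins did not follow, since Ccnd1 and Ccne1 had overlapping groups (-0.027 and -0.025) and Ccnd2 fell by 0.38. The values of Ccnd3 and Ccne2 are not reported here. Rb1, the retinoblastoma gene that restrains entry into S phase, was at 19.6, 19 and 20.8 CPM in sh-Empty and 8.90, 8.31 and 12.1 CPM in sh-Jmjd1a libraries. It fell by 1.02 (edgeR adjusted p = 1.6e-07), and its relative Rbl1 rose by 0.79. Among p53 targets and senescence genes 14 were higher and 4 lower of 23 (median 0.19). Eda2r, a TNF-family receptor, was at 24.8, 29.2 and 26.2 CPM in sh-Empty and 74.4, 80.1 and 80 CPM in sh-Jmjd1a libraries, and Btg2, an antiproliferative gene, was at 8.11, 7.76 and 5.83 CPM in sh-Empty and 30.4, 23.1 and 19.9 CPM in sh-Jmjd1a libraries. The rises were 1.55 and 1.77, while Cdkn1a, the p21 gene and a defining p53 target, had overlapping groups (0.041) and Mdm2 fell by 0.33.

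The ATF4 list of amino acid supply and tRNA charging had 23 higher and 3 lower of 28 (median 0.49). ATF4 is the factor that cells raise when amino acids run short or the endoplasmic reticulum is stressed. Slc7a11, the cystine importer, was at 3.00, 1.98 and 3.50 CPM in sh-Empty and 15.6, 12.6 and 11 CPM in sh-Jmjd1a libraries. Trib3, a pseudokinase, was at 11.1, 10.5 and 10.7 CPM in sh-Empty and 35.6, 37.5 and 36.7 CPM in sh-Jmjd1a libraries. Asns, asparagine synthetase, was at 108, 104 and 99.8 CPM in sh-Empty and 188, 198 and 199.7 CPM in sh-Jmjd1a libraries. The groups did not overlap in any of these 3 genes, and the rises were 2.17, 1.76 and 0.91. Chac1, a glutathione-degrading enzyme, and the glycine transporter Slc6a9 rose by 1.59 and 1.55, and Atf4 by 0.48. Psat1, of serine synthesis, and Ddit4, an inhibitor of mTORC1, fell, at -0.28 and -0.56. The unfolded protein response list was split, with 9 lower and 4 higher of 23, and 8 and 6 without sh-Jmjd1a replicate 3. Its members Ddit3 and Ppp1r15a, which ATF4 also induces, rose by 0.88 and 0.90, while Xbp1 fell by 0.61 and the chaperone gene Hspa5 was at -0.060 and did not pass the test.

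Interferon-stimulated and antigen presentation genes had 33 higher and 2 lower of 44, with a median of 0.68, the highest median among the lists with at least 5 tested members. Without sh-Jmjd1a replicate 3 the count was 29 higher and 2 lower. These genes are the usual targets of interferon signaling, and most were scarce. Oas2, a sensor enzyme for double-stranded RNA, was at 0.0881, 0.172 and 0.194 CPM in sh-Empty and 3.05, 2.34 and 3.65 CPM in sh-Jmjd1a libraries. Mx2, an antiviral GTPase, was at 0.264, 1.29 and 0.583 CPM in sh-Empty and 3.66, 3.39 and 3.73 CPM in sh-Jmjd1a libraries. Ifit2, an RNA-binding antiviral protein, was at 1.94, 1.81 and 1.42 CPM in sh-Empty and 9.33, 7.90 and 8.31 CPM in sh-Jmjd1a libraries. The groups did not overlap in any of them. Mx2 and Ifit2 rose by 2.34 and 2.32, and no fold change is given for Oas2, which had 1, 2 and 3 counts in the sh-Empty libraries. At higher levels, B2m, the light chain of class I molecules, was at 538, 533 and 534 CPM in sh-Empty and 943, 969 and 857 CPM in sh-Jmjd1a libraries, and rose by 0.79. Irf7, a transcription factor of this response, overlapped between groups at 3.08, 3.19 and 2.59 CPM in sh-Empty and 3.05, 3.79 and 4.04 CPM in sh-Jmjd1a libraries. Oas, Gbp, Ifit and Naip genes have near copies, and how the counting split reads between them is not stated.

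**Figure D3:**
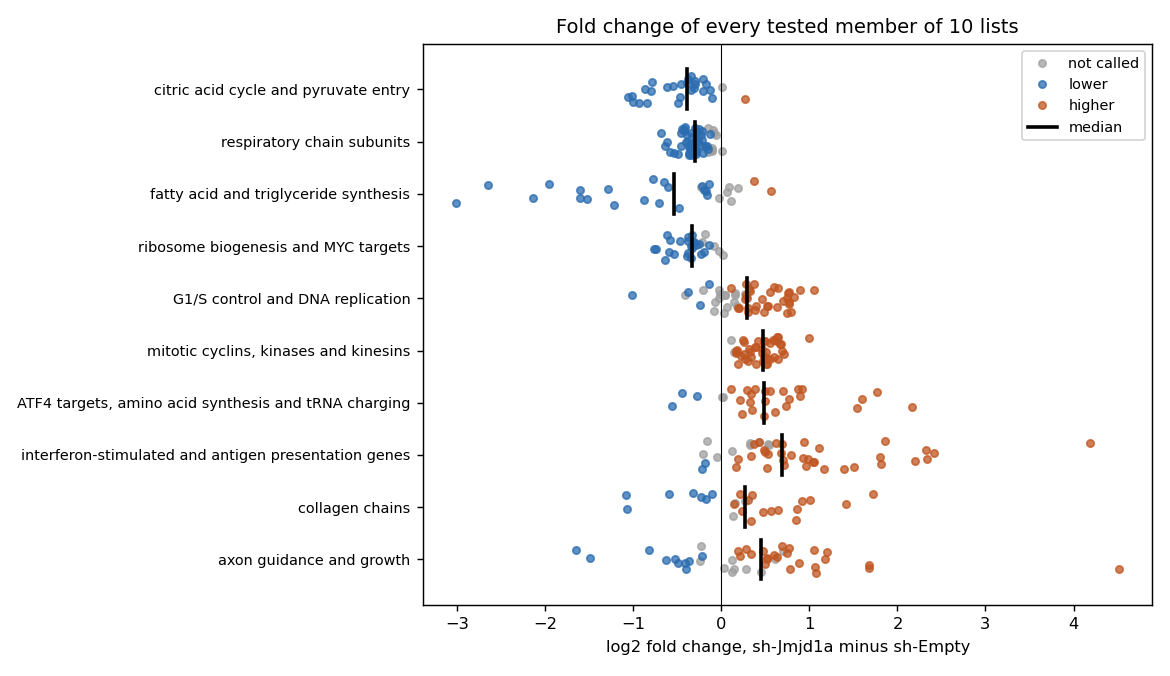
Log2 fold change of every tested member of 10 lists, 1 point per gene, blue where called lower, orange where called higher and grey where not called. Black bars are the list medians, from -0.54 for fatty acid and triglyceride synthesis to 0.68 for the interferon list. The points of the citric acid cycle and mitotic lists are narrow, while collagen, axon guidance and interferon members spread over several log2 units.

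Immediate early and NR4A genes had 17 higher and 1 lower of 27 (median 0.42). Fos was at 1.76, 2.76 and 2.33 CPM in sh-Empty and 9.94, 7.18 and 6.60 CPM in sh-Jmjd1a libraries, and Nr4a2, an orphan nuclear receptor induced by cAMP, was at 2.91, 3.19 and 4.08 CPM in sh-Empty and 8.46, 11.1 and 10.9 CPM in sh-Jmjd1a libraries. They rose by 1.77 and 1.55, Egr1 rose by 1.23, and Fosl1, a late AP-1 subunit, fell by 0.99. The cAMP-hydrolyzing enzyme gene Pde3b rose by 1.16. Hypoxia response genes had 14 higher and 3 lower of 22 (median 0.28). Lox, Ero1a and Ndrg1 rose by 1.09, 0.60 and 0.60, and Epas1, which encodes HIF-2α, fell by 1.86 from a mean of 4.63 CPM. Glycolysis genes did not follow, with 8 higher and 6 lower of 20. Ldhb was at 136, 127 and 132 CPM in sh-Empty and 44.2, 48.9 and 43.7 CPM in sh-Jmjd1a libraries, with a log2 fold change of -1.53, and Hk2 fell by 0.77 while Hk1 rose by 0.46.

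Extracellular matrix genes changed in both directions. The higher shares of the collagen, elastic fibre and protease lists were 60%, 50% and 52.9%, beside 22.3% of all tested genes. Their lower shares were 28%, 35.4% and 23.5%, beside 23.9% of all tested genes. Collagen chains had 15 higher and 7 lower of 25 (median 0.27). The fibrillar chain genes Col3a1 and Col1a2 were among the most abundant of all, with Col3a1 at 4785, 4799 and 4799.5 CPM in sh-Empty and 8857, 8914 and 8338 CPM in sh-Jmjd1a libraries. They rose by 0.86 and 1.00, and Col11a1, a minor fibrillar chain, rose by 1.72. Col18a1, of basement membranes, was at 662, 625 and 689 CPM in sh-Empty and 324, 309.6 and 305 CPM in sh-Jmjd1a libraries, with a log2 fold change of -1.08, and Col4a1 rose by 0.23. Elastic fibre, proteoglycan and matricellular genes had 24 higher and 17 lower of 48. Tnc, of tenascin C, was at 85.5, 86.1 and 87.3 CPM in sh-Empty and 245, 214 and 237 CPM in sh-Jmjd1a libraries, and Ccn1, a matricellular YAP target, was at 35.3, 35.9 and 39.5 CPM in sh-Empty and 97.2, 92.5 and 89.4 CPM in sh-Jmjd1a libraries. Both rose, by 1.42 and 1.33, as did Fbln1 (fibulin 1, 1.69) and Thbs1 (thrombospondin 1, 1.26). The basement membrane genes Nid2 and Lama5 fell, at -1.66 and -1.90. Among matrix proteases and inhibitors 18 were higher and 8 lower of 34. Adam12, a metalloprotease of preadipocytes, was at 352, 352 and 337 CPM in sh-Empty and 79.7, 78.3 and 82.9 CPM in sh-Jmjd1a libraries. It fell by 2.11 (edgeR adjusted p = 8.12e-24), Mmp9 fell by 2.87 from 3.62 CPM, and Mmp2, Timp1 and Adamts6 rose by 0.63, 1.35 and 1.72.

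Genes of the actin cytoskeleton, focal adhesions and of SRF and YAP signaling had 21 higher and 7 lower of 35 (median 0.34). Zyx, of zyxin, was at 146, 134 and 134 CPM in sh-Empty and 290.1, 290.4 and 275 CPM in sh-Jmjd1a libraries, and Itgb3, an integrin subunit, was at 71.3, 76.8 and 74.8 CPM in sh-Empty and 145, 151 and 154 CPM in sh-Jmjd1a libraries. They rose by 1.05 and 1.01, Fhl1 rose by 2.27 from under 1 CPM on average, and Mylk, myosin light chain kinase, fell by 1.18. Preadipocyte and fibroblast markers had 15 higher and 5 lower of 25 (median 0.28). Thy1 was at 97.3, 87.7 and 84.5 CPM in sh-Empty and 184, 178 and 159.9 CPM in sh-Jmjd1a libraries, a rise of 0.96. Against the direction of that list, Dlk1, the classic preadipocyte factor, was at 887, 835 and 837 CPM in sh-Empty and 525, 515 and 474 CPM in sh-Jmjd1a libraries and fell by 0.76, and Cd24a fell by 0.76. The fall of Ly6a (-0.41) was lost without sh-Empty replicate 2 or 3. Without sh-Empty replicate 3 the number lower in this list was 3.

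Axon guidance and growth genes had 23 higher and 10 lower of 43, at a median of 0.45, and 6 lower without sh-Empty replicate 3. Sema3c was at 23.7, 27.1 and 23.3 CPM in sh-Empty and 79, 77.3 and 79.3 CPM in sh-Jmjd1a libraries, and Ephb6, a receptor of the ephrin family, was at 3.79, 3.79 and 3.63 CPM in sh-Empty and 13.1, 12.1 and 10.8 CPM in sh-Jmjd1a libraries. These secreted or membrane guidance genes rose by 1.67 and 1.68, with Sema5a and Sema3a at 1.20 and 1.07. Plxnd1, a semaphorin receptor, was at 730.4, 704 and 705 CPM in sh-Empty and 404, 399.6 and 405 CPM in sh-Jmjd1a libraries and fell by 0.82, and Slit2 fell by 0.53. Map2, a microtubule protein of neurons, rose in all 3 libraries, from a mean of 7.89 to 25.2 CPM. The neuronal and glial genes Rbfox3, Sox10 and Gfap had no counts in any library. Ion channel genes had 11 higher and 6 lower of 20. Kcnk3, a potassium channel of adipocytes, was at 7.58, 9.74 and 9.13 CPM in sh-Empty and 1.83, 2.10 and 1.48 CPM in sh-Jmjd1a libraries. It fell by 2.29, and Cacna1c and Kcnn4 rose by 0.96 and 0.93. Of the 4 tested osteoblast markers, Ostn, described with the largest rises, Runx2 and Spp1 rose by 4.60, 0.76 and 0.30, and Alpl fell by 1.10.

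Signaling pathways changed member by member. Calls in both directions were common over all tested genes, at 23.9% lower and 22.3% higher. IGF ligands, receptors and binding proteins had 6 lower and 6 higher of 16. Igfbp4 was at 956, 936 and 933 CPM in sh-Empty and 359, 372 and 323 CPM in sh-Jmjd1a libraries, and Pappa, the protease that cleaves IGF-binding protein 4, was at 40.8, 46.3 and 41.9 CPM in sh-Empty and 112, 114 and 131 CPM in sh-Jmjd1a libraries. Igfbp4 fell by 1.42 while Pappa rose by 1.47, and Igfbp6 fell by 1.55. PDGF and FGF genes had 7 lower and 4 higher of 18. Spry4, a feedback inhibitor, was at 72.1, 74.8 and 75.3 CPM in sh-Empty and 29.2, 26.4 and 30.4 CPM in sh-Jmjd1a libraries, with a log2 fold change of -1.37, Fgfr3 fell by 1.34, and Fgf7 and Pdgfc rose by 0.88 and 0.93. TGF-β and BMP genes had 14 higher and 10 lower of 32. Tgfb2 was at 22.5, 20.3 and 26.7 CPM in sh-Empty and 9.68, 9.76 and 10.3 CPM in sh-Jmjd1a libraries, with a log2 fold change of -1.24, whereas Inhba and Acvr2a rose by 1.03 and 0.96. Wnt genes had 11 higher and 4 lower of 24, with Ccn4 at 1.71 and Lef1 at -0.77. Notch genes had 4 lower and 2 higher of 13, none by as much as 0.8. Insulin signaling genes had 12 lower and 12 higher of 32, with Akt2 at -0.53. Insr, the receptor gene, overlapped at -0.019. Glucocorticoid targets had 9 lower and 6 higher of 20 (7 and 7 without sh-Jmjd1a replicate 3), and clock genes 6 and 6 of 16. Chemokines, interleukins and TNF family genes had 12 lower and 9 higher of 28, and 13 and 7 without sh-Jmjd1a replicate 3. Cxcl13, a B-cell chemokine, was at 28, 28.7 and 36.4 CPM in sh-Empty and 8.20, 8.95 and 8.55 CPM in sh-Jmjd1a libraries, with a log2 fold change of -1.87, and Lif rose by 1.34.

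Iron is the cofactor of JMJD1A, and 11 of 22 genes of iron uptake, storage and sensing were lower and 3 higher (median -0.23). Tfrc, the transferrin receptor, was at 193, 214 and 201 CPM in sh-Empty and 139, 138 and 142 CPM in sh-Jmjd1a libraries, and Aco1, whose product is also the iron sensor IRP1, was at 249.9, 226 and 243 CPM in sh-Empty and 123, 124 and 129 CPM in sh-Jmjd1a libraries. They fell, at -0.54 and -0.94, and Ncoa4, the receptor for ferritin breakdown, fell by 0.72. Steap2, a metalloreductase, rose by 0.90. Antioxidant and NRF2 target genes had 13 lower and 5 higher of 27, and 13 and 10 without sh-Jmjd1a replicate 3. Sod2 was at 140.3, 130.2 and 138 CPM in sh-Empty and 68.4, 59.6 and 58 CPM in sh-Jmjd1a libraries, with a log2 fold change of -1.14, and Gclc and Sod3 rose by 0.83 and 1.08. Lysosome and autophagy genes had 12 lower and 8 higher of 35, beside 23.9% lower and 22.3% higher of all tested genes. Without sh-Jmjd1a replicate 3 they had 10 lower and 10 higher. Of 24 thermogenic genes 9 were tested, with 4 lower and 2 higher and a median of -0.27. Dio2, which activates thyroid hormone, rose by 1.76, while Kcnk3, described with the ion channels, was at -2.29 and Ppargc1b also fell.

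Among the enzymes and readers of H3K9 methylation other than Kdm3a, 7 were higher and 3 lower of 26 (median 0.04), beside 22.3% higher and 23.9% lower of all tested genes. The relative Kdm3b was at 81.8, 85.4 and 82.5 CPM in sh-Empty and 92, 94.4 and 105 CPM in sh-Jmjd1a libraries, a rise of 0.23. Setdb1, a trimethylating enzyme, was at 250.3, 238 and 245 CPM in sh-Empty and 177, 176 and 196 CPM in sh-Jmjd1a libraries, with a log2 fold change of -0.42. The G9a and GLP genes Ehmt2 and Ehmt1, which write dimethylation, overlapped between groups at 0.027 and -0.011. Mecom, a PR-domain factor, rose by 0.99, and the demethylase genes Phf8 and Kdm7a fell, at -0.60 and -0.54. Other JmjC and TET dioxygenases had 7 higher and 3 lower of 19, with Tet1 up by 1.19 and Kdm2b down at -0.81. Nuclear lamina and inner membrane genes had 8 higher and 5 lower of 21. Lmna was at 627, 596 and 626 CPM in sh-Empty and 898, 849 and 793 CPM in sh-Jmjd1a libraries and rose by 0.46, Syne1 rose by 1.54, and Sun2 fell by 0.61. The number lower there was 3 without sh-Empty replicate 1, without sh-Empty replicate 2 or without sh-Jmjd1a replicate 1.

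Germline, Hox, imprinted and long noncoding genes were also counted. Of 25 germline genes 3 passed the filter on low counts, and none was called in either direction by edgeR or with any library left out. Of 39 Hox genes 14 were tested, 4 were higher and 1 lower (28.6% and 7.14%), beside 22.3% and 23.9% of all tested genes. Hoxa5 was at 11.6, 9.40 and 10.4 CPM in sh-Empty and 20.2, 18.6 and 18.1 CPM in sh-Jmjd1a libraries, a rise of 0.85, with Hoxa3 and Hoxa2 at 0.68 and 0.55. The lower one, Hoxd8, lost its call once either sh-Empty replicate 2 or the third sh-Jmjd1a library was left out. Of 19 tested imprinted genes 5 were lower and 4 higher (26.3% and 21.1%), near the 23.9% and 22.3% of all tested genes. H19, a noncoding RNA, was at 27.8, 26.7 and 24.9 CPM in sh-Empty and 12.1, 9.36 and 9.56 CPM in sh-Jmjd1a libraries, with a log2 fold change of -1.36, Magel2 fell by 1.43 and Plagl1 rose by 1.06. Over all tested genes annotated as long noncoding RNA, 43 were higher and 23 lower of 331. Both are smaller shares than the 22.3% higher and 23.9% lower of all tested genes. Gm20559, C430049B03Rik, the host of a microRNA cluster, and Dubr, named after their values were seen, rose by 1.55, 1.15 and 1.07. 2700038G22Rik fell by 0.93.

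The promoters of all lists were searched for the same short motifs. Lists with more higher than lower members are described first, each with a motif known for its regulators. RefSeq promoter sequences (GRCm38.p6, 250 bases before to 50 bases after each start) matched 9476 of the 12272 tested genes with 12040 promoters, and both strands were searched. CCAAT together with TTTGAA or TTTAAA, the pair known from mitotic promoters, was in 7.70% of all promoters and in 27 of the 38 promoters of the mitotic list (71.1%). Bases upstream of the start are shown for 3 of its genes, on the strand of the gene, because they hold both motifs, which are in capitals (ATTGG is CCAAT on the other strand).
Ccnb1 (GRCm38.p6 chr13:100786498-100786610, minus strand): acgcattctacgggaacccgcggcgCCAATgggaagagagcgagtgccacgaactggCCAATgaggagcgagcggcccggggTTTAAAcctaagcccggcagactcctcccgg
Ccnb2 (GRCm38.p6 chr9:70421555-70421746, minus strand): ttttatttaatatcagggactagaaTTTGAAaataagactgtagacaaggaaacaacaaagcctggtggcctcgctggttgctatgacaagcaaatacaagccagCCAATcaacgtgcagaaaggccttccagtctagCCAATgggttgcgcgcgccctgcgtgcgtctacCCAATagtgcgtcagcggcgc
Cenpa (GRCm38.p6 chr5:30666752-30666885, plus strand): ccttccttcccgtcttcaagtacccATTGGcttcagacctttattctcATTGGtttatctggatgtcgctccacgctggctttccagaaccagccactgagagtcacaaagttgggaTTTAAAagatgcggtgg
Their expression changes were 0.46, 0.59 and 0.69. GAAANNGAA, the core of the interferon response element, was in 6.95% of all promoters and in 17 of the 37 of the interferon list (45.9%). The upstream windows of 3 of its genes hold runs of overlapping copies, in capitals and partly on the other strand. Gbp3 has another listed promoter, which holds no copy.
Oas1a (GRCm38.p6 chr5:120907526-120907570, minus strand): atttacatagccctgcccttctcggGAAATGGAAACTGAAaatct
Gbp3 (GRCm38.p6 chr3:142559975-142560039, plus strand): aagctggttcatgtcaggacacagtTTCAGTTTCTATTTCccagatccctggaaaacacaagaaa
Isg15 (GRCm38.p6 chr4:156200851-156200921, minus strand): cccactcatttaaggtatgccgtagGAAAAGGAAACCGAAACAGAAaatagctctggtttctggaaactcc
Oas1a, Gbp3 and Isg15 rose by 2.42, 1.85 and 0.96. TTGCATCA, a composite site of ATF4 with a C/EBP partner, was in 0.556% of all promoters and in 5 of the 28 of the ATF4 list (17.9%). It was present in Slc7a11, on both strands, and in Chac1, which are the members with the largest and the third largest rise.
Slc7a11 (GRCm38.p6 chr3:50443628-50443704, minus strand): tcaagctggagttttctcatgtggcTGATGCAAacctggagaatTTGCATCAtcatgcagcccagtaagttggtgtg
Chac1 (GRCm38.p6 chr2:119351024-119351081, plus strand): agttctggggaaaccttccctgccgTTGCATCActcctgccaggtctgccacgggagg
TTTGGCGC or TTTCCCGC, of the E2F type, was in 2.98% of all promoters and in 13 of the 52 of the G1/S list (25%), Mcm6 and E2f7 among them.
Mcm6 (GRCm38.p6 chr1:128359720-128359840, minus strand): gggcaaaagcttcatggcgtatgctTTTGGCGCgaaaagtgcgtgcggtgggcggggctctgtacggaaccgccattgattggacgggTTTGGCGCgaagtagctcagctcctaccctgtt
E2f7 (GRCm38.p6 chr10:110745216-110745273, plus strand): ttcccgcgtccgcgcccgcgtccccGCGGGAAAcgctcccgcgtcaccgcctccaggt
Mcm6 and E2f7 rose by 0.76 and 1.05. The CArG box of SRF was in 1.26% of all promoters, in 16.2% of those of the actin list and in 18.5% of those of the immediate early list. The member with the largest rise among those of the actin list that hold it was Fhl1, shown with the box in capitals, while its other listed promoter holds no box.
Fhl1 (GRCm38.p6 chrX:56779556-56779615, plus strand): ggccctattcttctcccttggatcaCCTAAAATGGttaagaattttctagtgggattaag
A match is a sequence and not a measured binding site. Over all called genes the shares were near the background for CCAAT, at 38.6% in the lower, 38.4% in the higher and 38.5% in all tested genes. TGANTCA, the AP-1 element, was in 14.6% of the promoters of genes higher by at least 1, in 9.72% of those lower by at least 1 and in 4.99% of all. For GAAANNGAA these shares were 12.6%, 7.29% and 6.95%. Lists that did not rise also held some of these motifs. GAAANNGAA was in 24% of the promoters of ribosomal proteins, and the CArG box in 12.5% of those of adipogenic transcription factors. The direct repeat known for PPAR and RXR was in 0.191% of all promoters. It was in none of the promoters of any gene list, the lipid lists included. A repeat this rare cannot show a difference between lists of this size.

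Called genes lay next to others of the same direction. Of 2702 pairs of adjacent tested genes that were both called, 63.3% had the same direction. The share was 57.2% for genes 2 places apart and 54.5% at 5 places. There were 135 runs of at least 4 adjacent tested genes called in the same direction, 73 lower and 62 higher, and the longest held 10 genes. How many such runs the shares of called genes alone would give was not worked out. In 16 runs the median change was at least 1. One was on chromosome 6 around Pparg, with Syn2 at -1.13, Timp4 at -1.29 and Pparg at -0.89 among its members. The call of Timp4, which lies within Syn2 on the other strand and whose reads cannot be told apart without the strand setting, was lost without sh-Empty or sh-Jmjd1a replicate 2. A run of keratin genes on chromosome 11 (chr11:99963321-100009979) held Krt36, Krt13, Krt15 and Krt19 at -2.38, -1.06, -0.67 and -1.85. The desaturase cluster of chromosome 19 (chr19:44213756-44482199), which held Scd3, Scd2 and Scd1 with Bloc1s2 and Pkd2l1, was lower throughout, at -1.23, -0.60 and -1.61 for the desaturase genes, which are near copies. In this run 3 calls were lost without sh-Empty replicate 1 (Scd3), without sh-Empty replicate 3 (Bloc1s2) and with either sh-Empty replicate 2 or the third sh-Jmjd1a library left out (Pkd2l1). Among runs of higher genes were Rras2, Copb1, Psma1, Pde3b, Calca and Sox6 on chromosome 7 (chr7:121190299-123182258), where Calca, of the hormone calcitonin and the peptide CGRP, rose by 3.38. On chromosome 15 (chr15:5156661-7147489) Ptger4, Osmr and Lifr, which are receptors for prostaglandin E2, oncostatin M and LIF, rose by 2.24, 0.42 and 1.64. Rictor, between them, was at 0.17 and lost its call once sh-Empty replicate 2, sh-Empty replicate 3 or the third sh-Jmjd1a library was left out. On chromosome X (chrX:104032421-105011673) Rtl3, Lpar4, P2ry10b and 2610002M06Rik rose, by 3.67, 3.02, 1.66 and 0.28, the last of which lost its call once either sh-Empty replicate 1 or the second sh-Jmjd1a library was left out. Positions are those of GENCODE M1 on the build of mm9.

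The shares of lower and higher genes also differed between whole chromosomes, which was examined after the values were seen. On chromosome 5, 40.4% of 740 tested genes were lower and 13.6% higher, with a median log2 fold change of -0.14. Chromosome 11 had 33.4% lower and 15.3% higher of 963 genes, with a median of -0.099. The X chromosome was the reverse, with 14.1% lower and 38.3% higher of 397 genes and a median of 0.14. The medians of the other 17 chromosomes lay between -0.05 and 0.07. The shift was spread along each chromosome, since all 11 windows of 10 Mb with at least 20 tested genes on chromosome 5 and all 12 on chromosome 11 had medians below 0, and all 10 on the X had medians above 0. Windows of 1 sign alone were also found on chromosome 14, with 6 of 6 below 0, and on chromosome 18, with 6 of 6 above 0, where the chromosome medians were -0.05 and 0.07. On chromosome 14, 27.2% were lower and 15.2% higher. It was also present without sh-Jmjd1a replicate 3 (medians -0.14, -0.09 and 0.13). In 4 equal classes of genes by span, from short to long, the medians of chromosome 5 were -0.20, -0.19, -0.17 and -0.06, and those of the X were 0.08, 0.13, 0.13 and 0.28, against -0.07, -0.02, -0.00072 and 0.07 for all placed genes.

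The difference was also seen in the share of each library's counts. Chromosome 5 held 5.81% to 5.88% of the placed counts in sh-Empty libraries and 5.37% to 5.40% in sh-Jmjd1a libraries. Chromosome 11 held 8.73% to 8.74% against 8.28% to 8.37%, and the X held 3.25% to 3.30% against 3.67% to 3.73%. In all 3 cases the 2 groups were far apart relative to their spread. The sh-Jmjd1a cells that carry LacZ had 5.30% to 5.35% on chromosome 5, 8.32% to 8.35% on chromosome 11 and 3.65% to 3.69% on the X. Those that carry JMJD1A(WT) had 5.47% to 5.48%, 8.43% to 8.50% and 3.62% to 3.69%, and those with the JMJD1A mutant had 5.13% to 5.19%, 8.19% to 8.28% and 3.65% to 3.74%. All of them were also on the sh-Jmjd1a side of the sh-Empty range. The number of copies of each chromosome was not measured in these files, and its part in these differences was not tested.

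**Figure D4:**
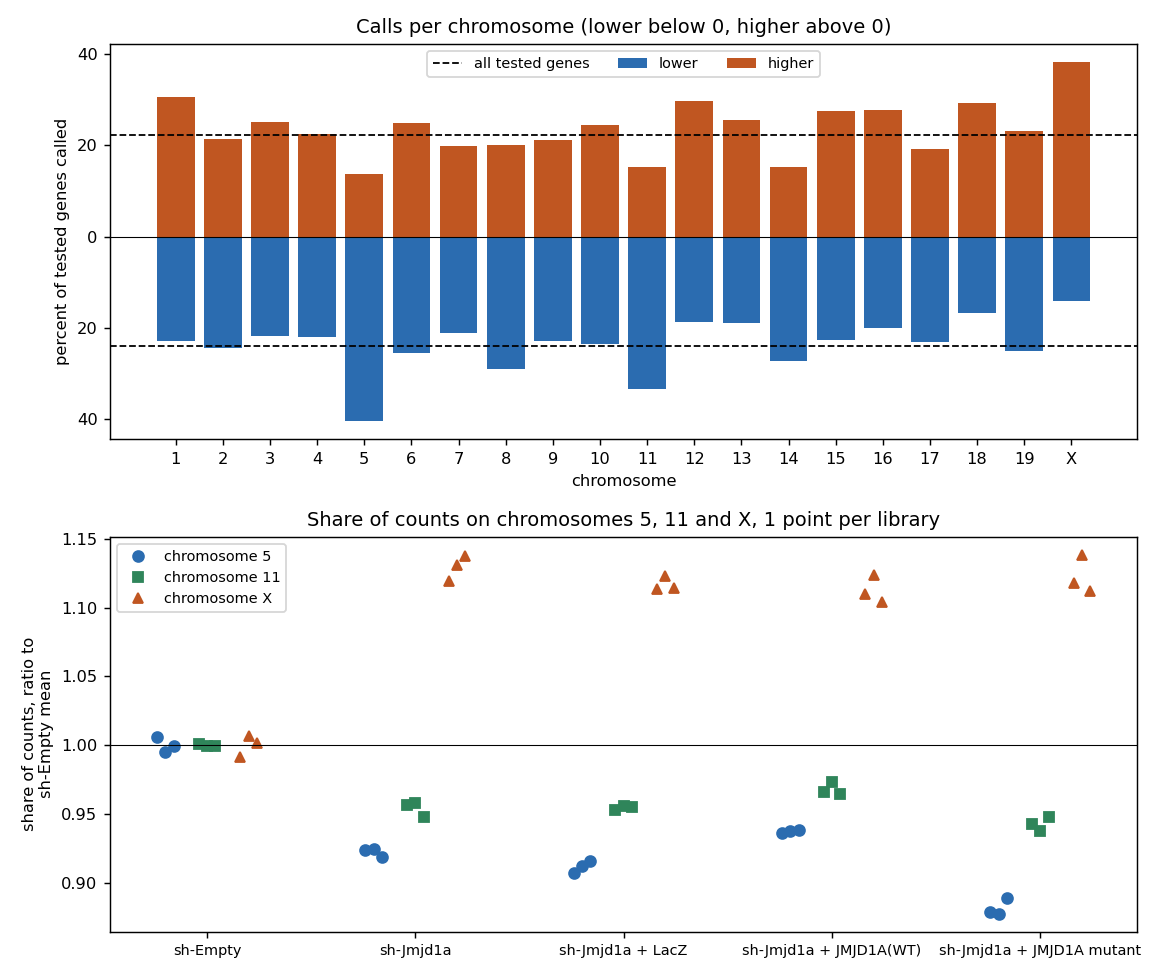
Upper panel, percent of tested genes on each chromosome called lower (blue, below 0) and higher (orange, above 0), with dashed lines at the shares of all tested genes. Lower panel, share of placed counts on chromosomes 5 (circles), 11 (squares) and X (triangles) in each of the 15 libraries, divided by the mean of the 3 sh-Empty libraries. Chromosome 5 has the most lower genes, 40.4%, and the X the most higher genes, 38.3%, and the 12 libraries made from sh-Jmjd1a cells lie below 1 for chromosomes 5 and 11 and above 1 for the X.

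Fold changes also followed the length of the transcript, and 1 library differed from its replicates in the same sense. In the first of 4 equal classes of genes, with the shortest summed exons (0.039 to 2.33 kb) 26.8% were lower and 13.6% higher, with a median of -0.07. In the longest class (5.67 to 117 kb) 21.1% were lower and 32% higher, with a median of 0.06. Replicate 3 of sh-Jmjd1a differed from replicates 1 and 2 in the same sense, by a median of -0.08 in the shortest and 0.07 in the longest class. The corresponding values for sh-Empty replicate 3 were 0.02 and -0.01. Without sh-Jmjd1a replicate 3 the medians of the shortest and longest classes were -0.04 and 0.04, with 22.8% lower and 16.1% higher in the shortest and 21.9% and 30.6% in the longest. In that library 2 noncoding RNAs, chosen after their values were seen, were higher than in the other libraries. Malat1 was at 928, 933 and 802 CPM in sh-Empty and 1115, 1042 and 1830.4 CPM in sh-Jmjd1a libraries, and Kcnq1ot1 was at 20.2, 23.4 and 22.3 CPM in sh-Empty and 19.3, 16 and 44.4 CPM in sh-Jmjd1a libraries. Neither passed the test, at 0.58 and 0.29, and RNA integrity was not given in the sources used here, so its part was not tested.

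**Figure D5:**
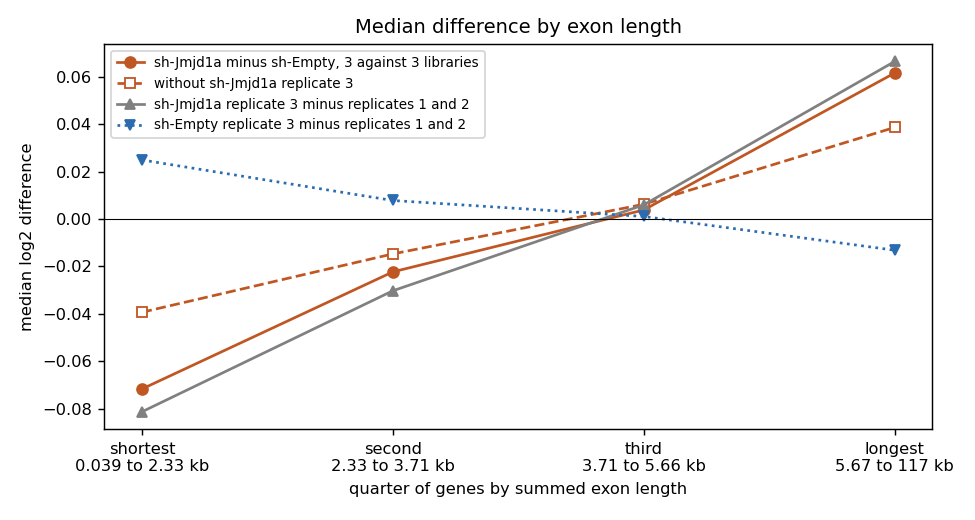
Median log2 difference in 4 equal classes of tested genes by summed exon length. Orange lines are sh-Jmjd1a minus sh-Empty, with all 6 libraries (filled) and without sh-Jmjd1a replicate 3 (open), the grey line is sh-Jmjd1a replicate 3 minus its 2 fellow libraries, and the blue line is sh-Empty replicate 3 minus its own. The orange line runs from -0.07 to 0.06 with all libraries and from -0.04 to 0.04 without that replicate.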

How the data were processed

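Poly(A) RNA of 3T3-L1 lines was sequenced, and per the labels and the study's methods reads were trimmed with fastp, aligned with HISAT2 to mm9 and counted with featureCounts. The deposited values are raw read counts per Entrez gene number, not normalized. The strand setting and annotation of the counting are not given in the sources used here, and the kit is named differently by the labels and the study. Symbols were matched for 24191 of 26301 gene numbers and mm9 positions for 22638, by symbol. Gene numbers without a symbol held 0.4999% of counts.

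The 6 libraries were grouped by title. Genes were kept by filterByExpr with a minimum count of 10 and compared with edgeR 4.0.16 (TMM scaling, robust quasi-likelihood test, R 4.3.3), with Benjamini-Hochberg adjustment over all tested genes and a threshold of 0.05. CPM are TMM-scaled. The fit was tested on simulated counts. Alternatives were other scalings, filters and fits, DESeq2 1.42.0, a replicate block and each library left out. The position, length and sh-Jmjd1a replicate 3 comparisons were chosen after seeing the data.

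Gene lists and named genes were chosen with earlier results of these data known. Named are Kdm3a, the 12 largest non-overlapping changes each way at 5 CPM or more, the 5 smallest adjusted p each way, the 6 largest each way at 500 CPM or more, genes counted in one group only, the first 3 members and the 4 largest called changes each way of a list at 1 CPM or more, the markers, and genes of runs of at least 4 with a median change of at least 1. Birc5, Aurka, Ccnb2, Mcm6, Gbp3, Isg15, B2m, Malat1, Kcnq1ot1, Gm20559, C430049B03Rik, Dubr and 2700038G22Rik lie outside this rule and were chosen after their values were seen. Values of some genes of these lists are not reported here.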

Additional observations from a re-analysis of the deposited data

How the results depend on the processing

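Across other scalings, filters and fits, the lower genes numbered 2479 (DESeq2) to 2979 (likelihood ratio test) at the same threshold, and the higher genes 2483 (DESeq2) to 3130 (upper-quartile scaling). With an adjusted p under 0.01 they numbered 2292 and 2141. With each library left out in turn, 2499 to 2776 genes were lower and 2353 to 2812 higher, and Kdm3a lay between -0.45 and -0.39. The direction of 1 named gene turned, Kcnq1ot1, at -0.32 without sh-Jmjd1a replicate 3 (edgeR adjusted p = 0.0192), against 0.29 with it, and at up to 0.56 with the other libraries left out. Of 494 named genes, 41 lost their call without at least 1 of the libraries, and 36 lost it under at least 1 of the other scalings, filters, fits and thresholds. The replicate numbers are shared between groups, but same-numbered libraries did not deviate together (r = 0.0321, -0.0287 and -0.0442 across genes). No pairing by number was therefore seen over all genes, but a pairing that acts on few genes would not show in this measure. With the replicate block 2790 genes were lower and 2635 higher. Counts below about 10 per library limit the scarce genes.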
